A study of Homo sapiens with 19 samples.

Results

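The chemokine ligand genes described here are the protein-coding genes of GENCODE release 44 (human genome build hg38) whose names begin with CCL or CXCL followed by a number. There were 41 of them among 20007 protein-coding genes. Each was measured as the number of base pairs (bp) lying under listed peaks within 10 kb on either side of its transcription start site (TSS), the 5′ end of the gene. Ensembl's canonical transcript starts elsewhere at 18 members, by over 2.5 kb at 5: CCL20, CCL24, CCL26, CXCL11 and CXCL13. The cells were MOLM-13, a human acute myeloid leukaemia line, and the assay was CUT&RUN, in which a nuclease guided by an antibody cuts out the chromatin that carries a mark. Of 19 libraries, 12 enter this account. For each of the marks H3K27ac, H3K4me2 and H3K4me3 they comprise 2 Corin libraries and 2 libraries of the vehicle, DMSO. Per the labels, treatment was at 0.1 µM for 24 h, a dose also written beside the DMSO libraries, where its meaning is unclear. The other 7 libraries (all-trans retinoic acid with Corin, an LSD1 antibody, and IgG) were not analysed here. Nothing in the labels says that replicates came from separate cultures, so the spread between them may be technical.

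Chemokines are small secreted proteins that direct leukocyte migration through G protein-coupled receptors. Many of their genes stand in clusters on chromosomes 4 and 17, where genes of related ligands lie side by side, and myeloid cells switch on many of them during inflammation and differentiation. H3K4me2 marks promoters and enhancers and is removed by the demethylase LSD1, H3K27ac marks active promoters and enhancers, and H3K4me3 is typical of active promoters. Corin blocks LSD1 together with the deacetylases with which LSD1 is bound in the CoREST complex.

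Every mark covered more of the genome in the Corin libraries. The lists held 17599 to 34424 peaks for H3K27ac, 30896 to 41152 for H3K4me2 and 11104 to 11883 for H3K4me3, and the covered length after Corin was 1.96, 1.28 and 1.06 times that after DMSO. Read depth is unknown beyond the labels' minimum of 5000000 reads per sample, and its part in these totals was not tested. Of 8 myeloid leukaemia markers, 6 (SPI1, CEBPA, CD33, FLT3, HOXA9 and MEIS1) had H3K4me3 at the TSS in all 4 libraries. MPO had no H3K4me3 there. H3K27ac was there in all 4 libraries at SPI1, CEBPA, CD33, FLT3, PTPRC and MPO, in 3 at HOXA9 and in 0 at MEIS1. None of 18 markers of T, B, erythroid, epithelial, fibroblast and endothelial cells had H3K4me3 or H3K27ac there, though CD8A, PAX5 and COL1A1 had H3K4me2 in all 4 libraries. With 2 libraries against 2, the exact two-sided permutation test has 6 arrangements and cannot give a p below 0.33. A gene is therefore called higher, or lower, after Corin when both Corin libraries lay above, or below, both DMSO libraries, and each count is set beside the share of all genes called in the same way.

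In the DMSO libraries the chemokine ligand genes carried little of these marks. A peak within 10 kb in both DMSO libraries was listed for 4 of 41 members with H3K27ac (9.76%, against 32.7% of all genes), 18 with H3K4me2 (43.9% against 65.1%) and 2 with H3K4me3 (4.88% against 52.4%). At the TSS itself, within 1 kb, 0 members had H3K4me3 in all 4 libraries, against 45.9% of all genes. H3K4me2 was there in all 4 libraries at 11 members (26.8%, against 56.1% of all genes), and H3K27ac at 1, CCL5 (2.44% against 24.5%).

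The members fell into 4 states over the 12 libraries. No peak of any mark was listed within 10 kb of 17 members: CXCL1 and CXCL5 of the neutrophil-attracting group, CXCL12, CXCL13, CXCL14, CXCL17, CCL28, CCL22, CCL7, CCL8, CCL11, CCL14, CCL15, the readthrough gene CCL15-CCL14, CCL16, CCL18 and CCL4. The nearest listed H3K4me2 region to these genes was 13.0 kb away for CCL4 and 223.5 kb away for CXCL13. H3K4me2 alone was found near 9 members, among them CCL2, CCL20 and CXCL6. H3K27ac and H3K4me2 were both found near 11, among them CXCL8, CCL5, CCL3L3 and the CXCR3 ligands CXCL9, CXCL10 and CXCL11. All 3 marks were found near CXCL2, CCL25, CCL27 and CXCL16. H3K27ac was listed in only 1 library at CXCL2, CCL25, CCL27 and CXCL10, and H3K4me3 in only 1 at CCL25.

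H3K4me2 was the mark in which most members differed. It was higher after Corin at 17 of 41 members (41.5%), beside 27.8% of all genes, and lower at 1 (CXCL3), beside 2.69%. When each list was cut to the same number of top-scoring peaks, 16 of the 17 were still called and no other was, beside 21.6% of all genes, and 0 were lower, beside 5.23%. The exception was CCL17, whose peaks were not among those kept. The median difference was 60.5 bp over the members and 57.0 bp over all genes, and 17 members had no peak. Among genes with a peak in both DMSO libraries the median ratio of Corin to DMSO was 1.64 for 18 members and 1.11 for 13017 genes. With limma on log2(bp + 100) and unpaired libraries, no member and no gene passed an adjusted p of 0.05. With a block for the replicate number 3 of 22 members passed, beside 1.81% of all genes tested, though the labels name no pairing. In the unpaired fit, at an unadjusted p under 0.05, there were 12 higher members of 22 tested, and 14% of all genes tested. Of those 12, CCL4L2, CCL13 and CCL17 had no peak in the DMSO libraries and entered the test only through the Corin libraries, so the count is given as a description.

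**Figure D1:**
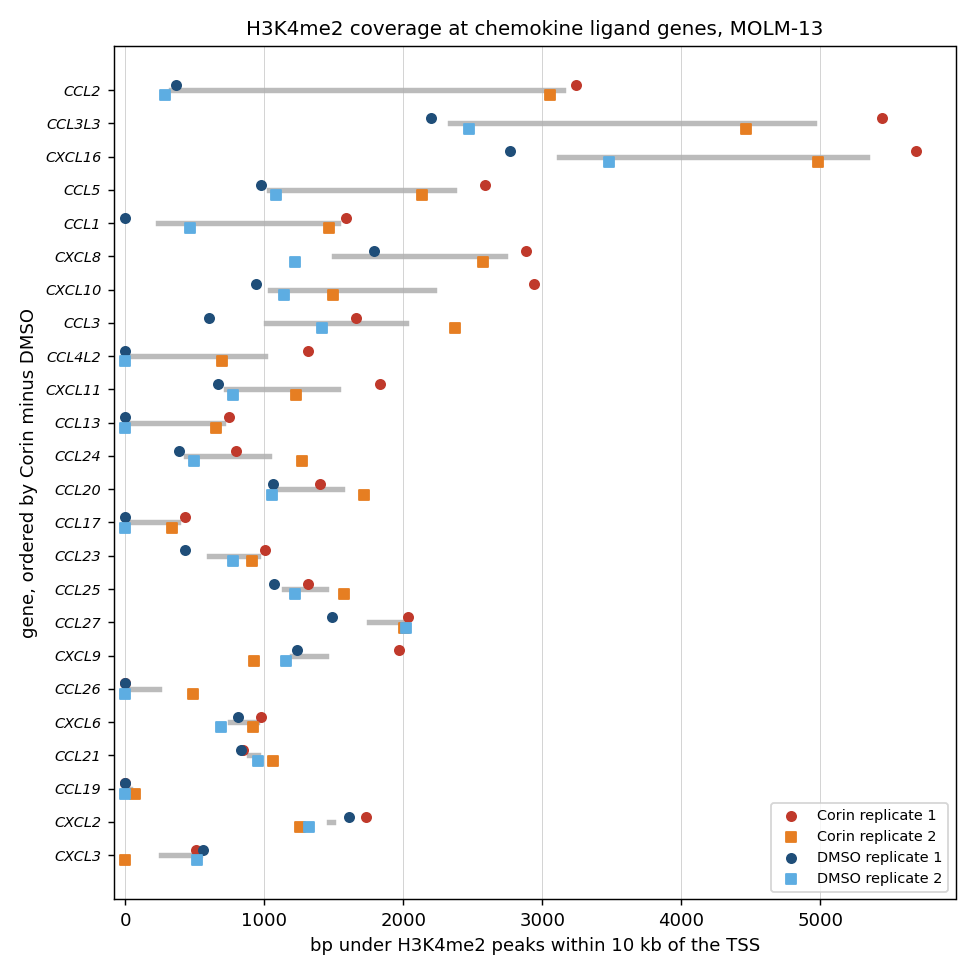
Base pairs under H3K4me2 peaks within 10 kb of the TSS (horizontal axis) for the 24 chemokine ligand genes with any H3K4me2 peak (vertical axis, ordered by difference); circles and squares are replicates 1 and 2, red and orange are Corin, dark and light blue are DMSO, and grey bars join the group means. CCL2 stands at 3241 and 3054 bp after Corin against 367 and 290 bp after DMSO, while CXCL2 and CCL21 overlap between treatments.

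Among the monocyte-attracting ligands, CCL2 showed the widest H3K4me2 difference of any member when every listed peak in the 10 kb window was counted. CCL2 (ENSG00000108691, chr17:34255274-34257208, plus strand) encodes the chemokine that recruits monocytes through CCR2. Its window held 3241 and 3054 bp of H3K4me2 in the Corin libraries and 367 and 290 bp in the DMSO libraries. The groups lay far apart, with a difference of 2819 ± 143 bp (SD of the difference, n = 2 and 2) and a 9.58-fold ratio. This was the 50th largest difference among 20007 genes. At a matched number of peaks CCL2 measured 2949 and 2247 bp against 367 and 290 bp, and its difference of 2269.5 bp was then below that of CCL3L3, 2335.5 bp. Within 2.5 kb of the TSS it was 954.5 bp, below CCL5 (1331 bp) and CCL3L3 (1035.5 bp). In limma without the replicate block CCL2 did not pass the threshold (log2 difference 2.93, adjusted p = 0.0970 over all genes tested). With the block it did (adjusted p = 0.0117), though the labels name no pairing. No H3K27ac or H3K4me3 peak was listed in its window.

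The added H3K4me2 at CCL2 lay in separate regions upstream and over the TSS. In all 4 libraries a peak was listed 2203 bp upstream (chr17:34252268-34253071), where it measured 678 and 763 bp with Corin and 367 and 290 bp with DMSO. Regions with a peak in both Corin libraries and neither DMSO library, called gained here, lay over the TSS (chr17:34254757-34255509), 5616 bp upstream (chr17:34248732-34249658) and 8116 bp upstream (chr17:34246324-34247158). The middle 300 bases of both intergenic regions are shown because they are where H3K4me2 was listed only after Corin near this gene. Both are hg38, forward strand, chr17:34246591-34246890 for the far region and chr17:34249045-34249344 for the near one. In this and the sequences of other members, 5 motifs were searched on both strands: the NF-kappaB consensus, GAGGAA as the core of the PU.1 site, TGANTCA as the AP-1 site, TTGCNNAA as a C/EBP site and TATAAA as the TATA box. Capitals mark matches. At CCL2 the match was GAGGAA, the core bound by the myeloid factor PU.1, which started at base 159 of the far sequence and base 33 of the near one, counted from the 5′ end.
CCL2 far upstream region: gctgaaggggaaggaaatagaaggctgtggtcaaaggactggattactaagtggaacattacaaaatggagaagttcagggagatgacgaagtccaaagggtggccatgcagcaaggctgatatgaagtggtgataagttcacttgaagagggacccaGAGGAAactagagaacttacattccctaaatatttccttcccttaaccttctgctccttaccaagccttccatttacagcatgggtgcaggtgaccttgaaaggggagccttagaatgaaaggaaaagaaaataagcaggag
CCL2 near upstream region: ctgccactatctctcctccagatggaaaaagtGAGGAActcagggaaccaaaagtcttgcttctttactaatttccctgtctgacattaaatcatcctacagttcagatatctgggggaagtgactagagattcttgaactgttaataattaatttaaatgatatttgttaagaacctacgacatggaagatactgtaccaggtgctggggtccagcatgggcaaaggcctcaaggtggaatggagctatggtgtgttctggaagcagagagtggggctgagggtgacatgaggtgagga
On either strand, GAGGAA occurred in the middle 300 bases of 31.5% of the 42421 H3K4me2 regions in the genome, so a match is common and is given as a description of the sequence.

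Of the other monocyte-attracting genes, CCL7 and CCL8 had no listed peak. CCL13, a ligand of CCR2 and CCR3, measured 746 and 657 bp of H3K4me2 after Corin and 0 in both DMSO libraries. These values come from a region closer to CCL1, the CCR8 ligand on the opposite strand (chr17:34360328-34363233), since windows of neighbouring genes overlap. CCL1 measured 1588 and 1469 bp after Corin against 0 and 470 bp after DMSO, a difference of 1294 ± 343 bp. Nearly all of this lay away from the CCL1 start: within 2.5 kb of the TSS the difference was 51 bp for CCL1 and 0 bp for CCL13.

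**Figure D2:**
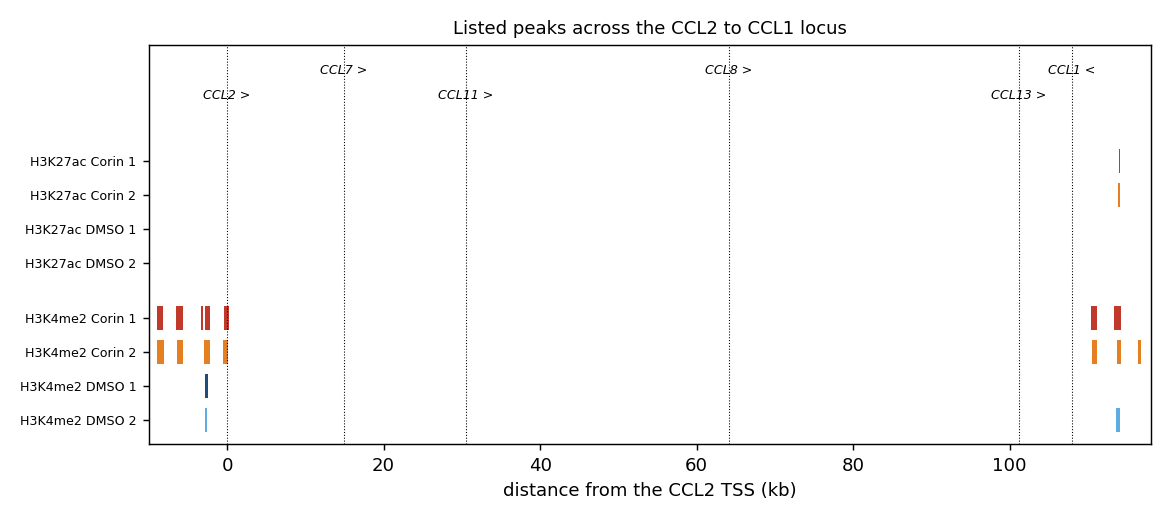
Listed peaks in each H3K27ac and H3K4me2 library (rows) along the CCL2 to CCL1 locus, by distance from the CCL2 TSS in kb (horizontal axis); dotted lines mark the TSSs and arrowheads the direction of transcription. H3K4me2 peaks gather near CCL2 and CCL1, 7 in each Corin library against 1 and 2 in the DMSO libraries, and none lies near CCL7, CCL11 or CCL8.

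The MIP-1 group and CCL5, which attract monocytes and T cells, were higher in H3K4me2 at 4 of 5 annotated members, beside 27.8% of all genes. CCL3L3 (ENSG00000276085, chr17:36194869-36196758, minus strand), a copy of the MIP-1 alpha gene CCL3, measured 5447 and 4469 bp after Corin against 2197 and 2477 bp after DMSO. The difference of 2621 ± 719 bp ranked 79th among all genes, and the groups did not overlap. CCL5 (chr17:35871491-35880793, minus strand), known as RANTES, measured 2592 and 2138 bp against 981 and 1087 bp, a 2.29-fold ratio in which a single peak over the TSS widened. CCL3 measured 1664 and 2376 bp against 605 and 1418 bp, and its difference of 1009 bp was 602 bp without DMSO replicate 1. CCL4L2, a copy of the MIP-1 beta gene CCL4, measured 1313 and 700 bp against 0 in both DMSO libraries, with a gained region over its TSS (chr17:36210427-36211168). CCL4 itself had no listed peak.

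These paired genes are close copies, and reads may have been divided between them. Over the 4001 bases centred on the canonical start, the edit distance was 818 between CCL3 and CCL3L3 and 272 between CCL4 and CCL4L2. That leaves 79.6% and 93.2% of the bases unedited. An insertion or deletion shifts bases out of a fixed window, so these shares can understate how alike the copies are. The filter on multiply mapping reads is not stated, and the share of reads between copies was not tested. Without CCL3, CCL4 and their copies, H3K4me2 was higher at 14 members and H3K27ac at 6, beside 27.8% and 28.7% of all genes.

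The promoter of CCL3L3 is shown because it lies inside the H3K4me2 peak of all 4 libraries at the member with the most added H3K27ac. H3K27ac covered it in Corin replicate 1, while in Corin replicate 2 peaks lay on either side of it. It is taken from RefSeq (GRCh38.p14), chr17:36196759-36197008, minus strand, the 250 bases that precede the TSS. Capitals mark the C/EBP motif at base 133 and the TATA box at base 222.
CCL3L3 promoter: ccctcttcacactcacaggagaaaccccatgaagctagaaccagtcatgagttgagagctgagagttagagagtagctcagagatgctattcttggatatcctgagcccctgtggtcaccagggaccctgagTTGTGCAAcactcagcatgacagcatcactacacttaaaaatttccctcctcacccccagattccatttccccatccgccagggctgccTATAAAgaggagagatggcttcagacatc
The TATA box occurred in 46.7% of the 30 member promoters in the RefSeq set used, beside 10.7% of 35116 RefSeq promoters of the same length. Members count 1 promoter per gene, while the 35116 were not limited to 1 per gene or to protein-coding genes. Median GC was 49.8% in member promoters and 62.4% in those of 15345 protein-coding genes, and the motif shares were not adjusted for it.

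The neutrophil-attracting CXC ligands, which act on CXCR1 and CXCR2, were mixed. CXCL8 (ENSG00000169429, chr4:73740519-73743716, plus strand), encoding interleukin-8, measured 2886 and 2574 bp of H3K4me2 after Corin against 1790 and 1221 bp after DMSO. The difference was 1225 ± 459 bp with no overlap between groups. CXCL6 measured 975 and 920 bp against 813 and 692 bp, a smaller step in a single peak over the TSS. CXCL2 carried a TSS peak in all 4 libraries and overlapped between treatments, at 1730 and 1259 bp against 1614 and 1321 bp. CXCL3 was the only member called lower, at 510 and 0 bp against 557 and 514 bp. The size of the CXCL3 difference rested on Corin replicate 2, where no peak was listed. Without that library CXCL3 was still called lower but the difference was -25.5 bp, and with peaks of a score of at least 100 it turned to 255 bp.

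The sequences at CXCL8 are shown because its window held gained regions of both marks. The promoter is the 200 bases before the TSS (RefSeq, GRCh38.p14, chr4:73740319-73740518, plus strand). The distal sequence is the middle of the H3K27ac gain 7768 bp upstream (hg38, forward strand, chr4:73732313-73732612), which also overlaps an H3K4me2 gain (chr4:73732207-73732436). In the promoter, capitals mark the AP-1 motif at base 114 and GAGGAA, read on the opposite strand, at base 165. In the distal sequence they mark the C/EBP motif at base 52, GAGGAA at base 111 and the AP-1 motif at base 268. The NF-kappaB consensus had 0 matches in either sequence, and a site that departs from its letters is not marked.
CXCL8 promoter: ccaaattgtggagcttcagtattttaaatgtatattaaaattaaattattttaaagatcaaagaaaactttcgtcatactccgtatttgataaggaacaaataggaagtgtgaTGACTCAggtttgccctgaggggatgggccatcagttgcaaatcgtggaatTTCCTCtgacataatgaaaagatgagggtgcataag
CXCL8 distal region: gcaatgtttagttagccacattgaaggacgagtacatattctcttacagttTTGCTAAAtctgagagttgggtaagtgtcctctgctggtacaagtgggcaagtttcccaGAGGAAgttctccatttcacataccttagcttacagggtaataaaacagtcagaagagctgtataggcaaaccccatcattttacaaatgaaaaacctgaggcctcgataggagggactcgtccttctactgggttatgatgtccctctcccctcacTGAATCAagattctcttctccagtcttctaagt
The AP-1 motif occurred in 20.0% of member promoters and 6.57% of all promoters, and in 10.1% of the middle 300 bases of all 41575 H3K27ac regions. The C/EBP motif occurred in 13.3% of member promoters, 9.05% of all promoters and 13.1% of those regions, and GAGGAA in 29.6% of them.

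**Figure D3:**
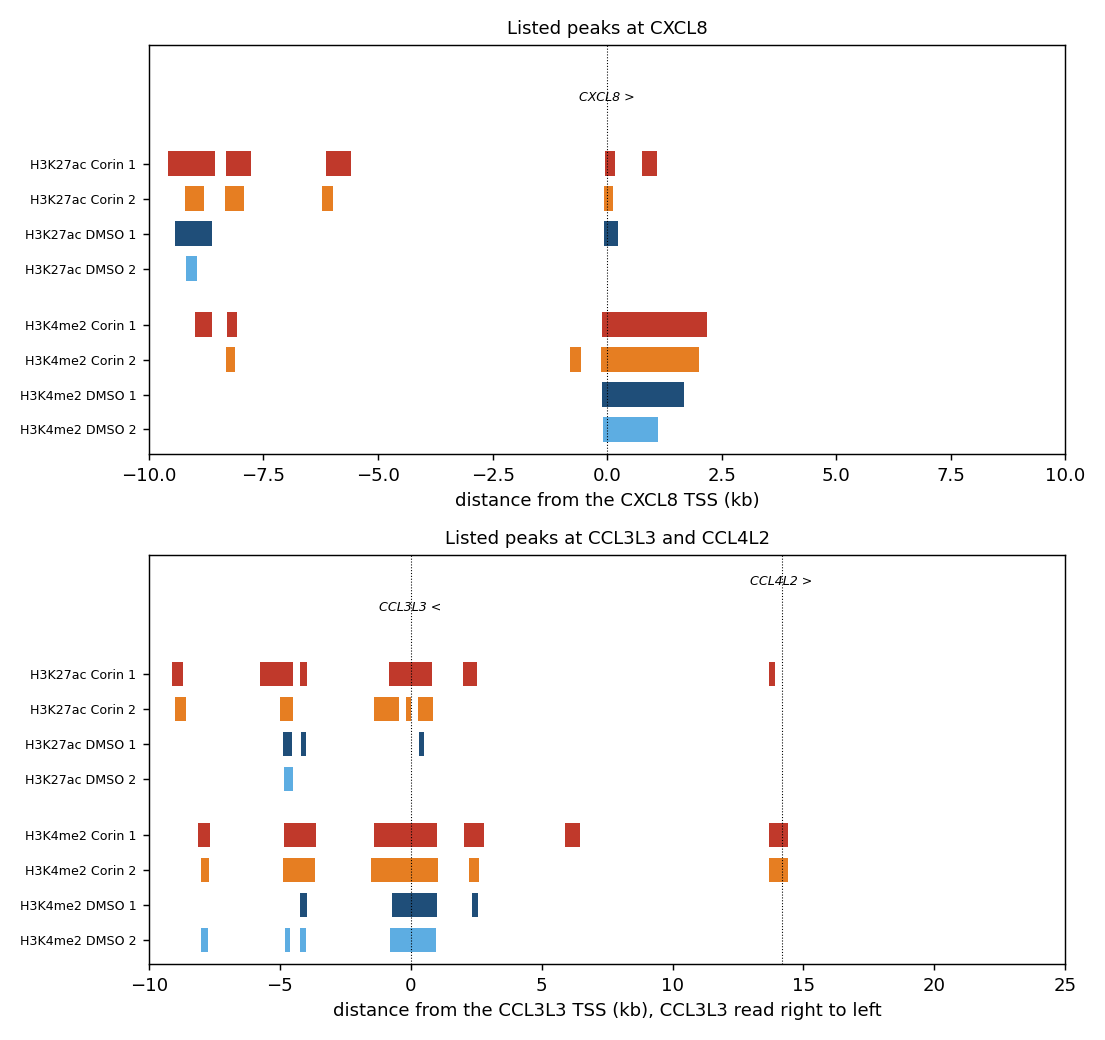
Listed H3K27ac and H3K4me2 peaks in each library (rows) within 10 kb of the CXCL8 TSS (top) and from CCL3L3 to CCL4L2 (bottom), by distance from the first named TSS in kb (horizontal axis). H3K27ac peaks 7768 and 5581 bp upstream of CXCL8 are listed in both Corin libraries and in neither DMSO library, and the CCL4L2 start carries H3K4me2 in the Corin libraries alone.

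The interferon-inducible CXC ligands, which attract activated T cells through CXCR3, had H3K4me2 in every library. CXCL10 (chr4:76021118-76023497, minus strand) measured 2942 and 1497 bp after Corin against 945 and 1140 bp after DMSO, a difference of 1177 ± 1031 bp. Most of that came from Corin replicate 1, without which the difference was 454.5 bp, while without Corin replicate 2 it was 1900 bp. CXCL11 measured 1836 and 1232 bp against 668 and 778 bp, a 2.12-fold ratio, and its difference of 811 bp was 509 bp without Corin replicate 1. These peaks form 1 region (chr4:76034341-76036176) that lies away from the outermost start and covers the canonical start, so the difference was 0 bp within 2.5 kb of the first and 811 bp within 2.5 kb of the second. CXCL9 overlapped between treatments, at 1968 and 925 bp against 1237 and 1159 bp. CXCL16 (chr17:4733533-4739928, minus strand), a membrane-bound ligand of CXCR6, had the most H3K4me2 of any member. It measured 5688 and 4980 bp against 2766 and 3477 bp, the 167th largest difference of all genes, but its window also holds the starts of MED11 and ZMYND15. Within 2.5 kb of the TSS the difference fell from 2212.5 to 352.5 bp. Over its own TSS the peak measured 1311 and 853 bp with Corin and 515 and 944 bp with DMSO, values that overlap. A gained region lay 7712 bp upstream of CXCL16 (chr17:4747640-4748808).

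Of the remaining CC ligands, CCL17, a CCR4 ligand that draws T helper cells, measured 430 and 337 bp after Corin and 0 in both DMSO libraries, all of it in an intron of the gene (chr16:57406849-57407278, gene at chr16:57404767-57416063, plus strand). Part of that intron, chr16:57406914-57407213 on the forward strand, is shown because it was the only listed region near the gene. Capitals mark GAGGAA at base 123.
CCL17 intron region: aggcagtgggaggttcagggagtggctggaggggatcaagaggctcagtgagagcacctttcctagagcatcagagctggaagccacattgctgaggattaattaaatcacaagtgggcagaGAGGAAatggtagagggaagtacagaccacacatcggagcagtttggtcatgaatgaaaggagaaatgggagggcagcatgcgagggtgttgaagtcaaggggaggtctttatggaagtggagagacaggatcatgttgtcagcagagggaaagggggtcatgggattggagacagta
Its partner CCL22 had no listed peak.

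The eosinophil-attracting CCL24, a CCR3 ligand, measured 797 and 1273 bp against 387 and 496 bp. Its difference of 593.5 bp was 355.5 bp without Corin replicate 2. Within 2.5 kb the CCL24 difference was 0 bp at the outermost start and 140.5 bp at the canonical start, which lies in a region with a peak in all 4 libraries (chr7:75813542-75814186). Of its relatives, CCL26 had a peak in Corin replicate 2 only (491 bp) and CCL11 had none. CCL20, the CCR6 ligand of mucosal tissue, measured 1404 and 1719 bp against 1063 and 1059 bp in a single peak over the outermost TSS. The 2 DMSO values were close to each other and both Corin values exceeded them. The CCL20 difference of 500.5 bp was 972.5 bp in a 10 kb window around the canonical start, 8103 bp away, and 0 bp within 2.5 kb of that start. CCL25, a CCR9 ligand of thymus and gut, measured 1313 and 1571 bp against 1069 and 1222 bp, a difference of 296.5 bp that was 167.5 bp without Corin replicate 2. CCL23, a CCR1 ligand, measured 1006 and 912 bp against 434 and 778 bp, with a difference of 353 bp that was 181 bp without DMSO replicate 1.

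Among the lymphoid-tissue ligands of CCR7, CCL21 measured 845 and 1064 bp after Corin against 834 and 954 bp after DMSO. The CCL21 groups overlap, so no difference was called. Of these ligands CCL19 had 70 bp in 1 Corin library. That was the edge of the CCL21 region (chr9:34701207-34702284), which was listed in all 4 libraries and lay 9931 bp from the CCL19 start. CCL27, a skin ligand of CCR10, measured 2036 and 2009 bp against 1486 and 2019 bp, in a region over the starts of neighbouring genes. The CCL27 values overlap, so no difference was called.

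H3K27ac was higher at 8 of 41 members (19.5%), beside 28.7% of all genes, and lower at 0, beside 0.345%. No H3K27ac peak was listed near 26 members, and a gene without a peak cannot be called. Among genes with a peak in at least 1 library, 8 of 15 members (53.3%) were higher, beside 54.6% of 10529 genes. Where both DMSO libraries had a peak, the median ratio of Corin to DMSO was 2.85 for 4 members and 1.54 for 6537 genes. CCL3L3 measured 4136 and 2631 bp after Corin against 793 and 345 bp after DMSO. Its difference of 2815 ± 1110 bp, a 5.95-fold ratio, ranked 238th of all genes. Most of the listed H3K27ac lay over the TSS and at 4481 bp downstream, within the long noncoding gene ENSG00000274767. CCL5 was the member whose TSS carried H3K27ac in all 4 libraries, at 1006 and 823 bp against 370 and 361 bp, a difference of 549 ± 130 bp. The 2 DMSO values of CCL5 were nearly equal and the groups stood apart.

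CXCL8 measured 2668 and 1274 bp of H3K27ac against 1121 and 239 bp. Its groups were separated by a small gap, and the difference of 1291 ± 1166 bp was 594 bp without Corin replicate 1 and 1988 bp without Corin replicate 2. CXCL9 (chr4:76001275-76007509, minus strand) measured 2909 and 1698 bp against 1190 and 450 bp, largely in a region within its gene body that was listed in all 4 libraries (chr4:76002323-76004271). Its difference of 1484 bp was 878 bp without Corin replicate 1. The CXCL9 TSS itself had no H3K27ac peak within 1 kb in any library.

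The other called members had H3K27ac in both Corin libraries and in neither DMSO library. CCL3 measured 250 and 535 bp, with a difference of 392.5 bp that was 250 bp without Corin replicate 2. CXCL16 measured 457 and 190 bp, all of it at the MED11 start 8033 bp downstream, and its difference of 323.5 bp was 190 bp without Corin replicate 1. CCL1 measured 200 and 247 bp in a single region. CCL24 measured 209 and 220 bp, which came from separate intronic regions, each listed in 1 library. At CCL3 a gained region 4556 bp downstream was joined in Corin replicate 2 by a peak of 225 bp near the TSS. None of these 4 genes exceeded 535 bp in any library. Within 2.5 kb of the TSS the H3K27ac difference was 0 bp for CCL1, CCL24 and CXCL16 and 112.5 bp for CCL3.

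In 5 further members H3K27ac was listed in a single Corin library: CXCL2, CXCL10, CCL25, CCL27 and CCL4L2. CXCL11 (529 and 0 bp against 482 and 0 bp) and CCL26 (359 and 0 bp against 249 and 0 bp) had peaks in both replicate 1 libraries. At a matched number of peaks only CCL5 and CCL3L3 were still called, beside 16.8% of all genes. CCL5 then measured 1006 and 621 bp against 370 and 361 bp, and CCL3L3 3578 and 1077 bp against 793 and 345 bp. CXCL8 then overlapped, at 1804 and 418 bp against 1121 and 239 bp. In limma no member or gene passed the adjusted threshold for H3K27ac. At an unadjusted p under 0.05 there were 6 higher members of 10 tested, beside 23.8% of all genes tested. Of those 6, CCL1, CCL3, CCL24 and CXCL16 had no peak in the DMSO libraries and entered the test only through the Corin libraries, so nothing is read from this count.

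**Figure D4:**
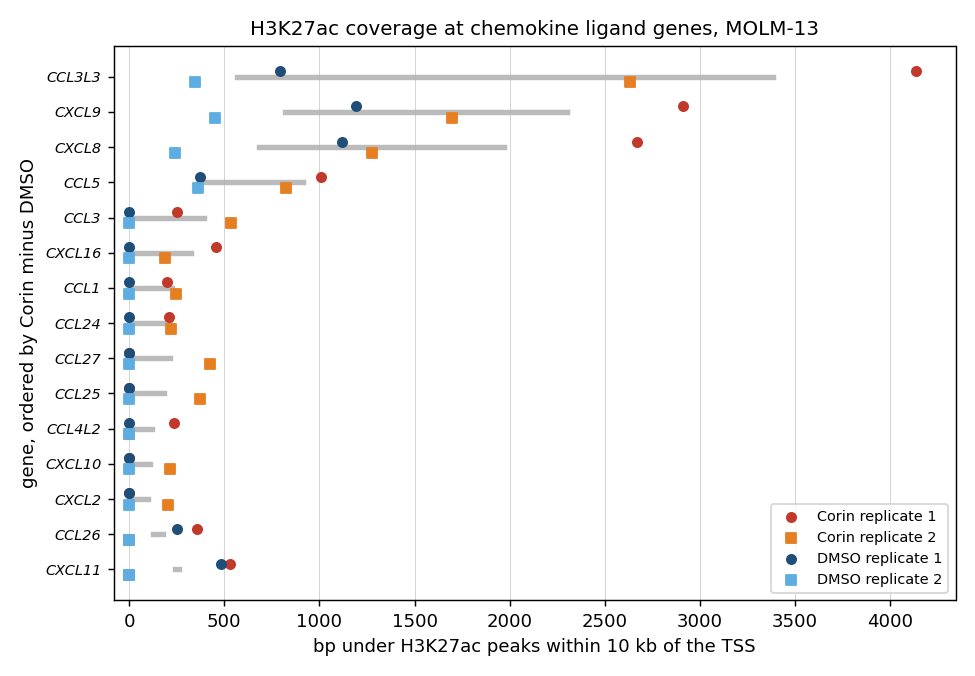
Base pairs under H3K27ac peaks within 10 kb of the TSS (horizontal axis) for the 15 chemokine ligand genes with any H3K27ac peak (vertical axis); symbols and colours stand for libraries as in the plot of H3K4me2 coverage, and grey bars join the group means. CCL3L3, CXCL9, CXCL8 and CCL5 are the members with H3K27ac in both DMSO libraries, and the highest value among the remaining members is 535 bp.

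H3K4me3 was nearly absent from these genes under both treatments. It was higher at 1 of 41 members (2.44%), beside 14.4% of all genes, and lower at 0, beside 4.63%. The higher count was also 1 at a matched number of peaks, beside 13.5%. Among genes with a peak in at least 1 library, 1 of 4 members (25%) was higher, beside 25.7% of 11189 genes. The called gene was CXCL16, at 933 and 939 bp after Corin against 711 and 625 bp after DMSO, and that peak lay over the MED11 start, 7808 bp from the CXCL16 TSS. CCL27 overlapped between treatments, at 932 and 562 bp against 457 and 1095 bp. CXCL2 had a narrow TSS peak in the replicate 2 libraries of both treatments, 265 bp after Corin and 218 bp after DMSO. CCL25 had 200 bp in Corin replicate 2 only. In limma 0 of 3 members tested and 0 of all genes passed the adjusted threshold, and at an unadjusted p under 0.05 the share of all genes higher was 5.73% and the number of members 0.

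Presence at the TSS gave a second view of the same lists. An H3K4me2 peak within 1 kb in both Corin libraries and neither DMSO library was found at CCL2, CCL4L2 and CCL25, 3 of 41 members, beside 0.48% of all genes. For H3K27ac 0 members met this rule, beside 3.06%, and for H3K4me3 0, beside 0.36%. At CCL25 the 82 bp in Corin replicate 1 came from a region 919 bp upstream that was listed in all 4 libraries, and most of the 324 bp in Corin replicate 2 from a region of 288 bp listed in that library alone. CCL2 and CCL4L2 were thus the members with a region over the start listed in both Corin libraries and neither DMSO library.

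**Figure D5:**
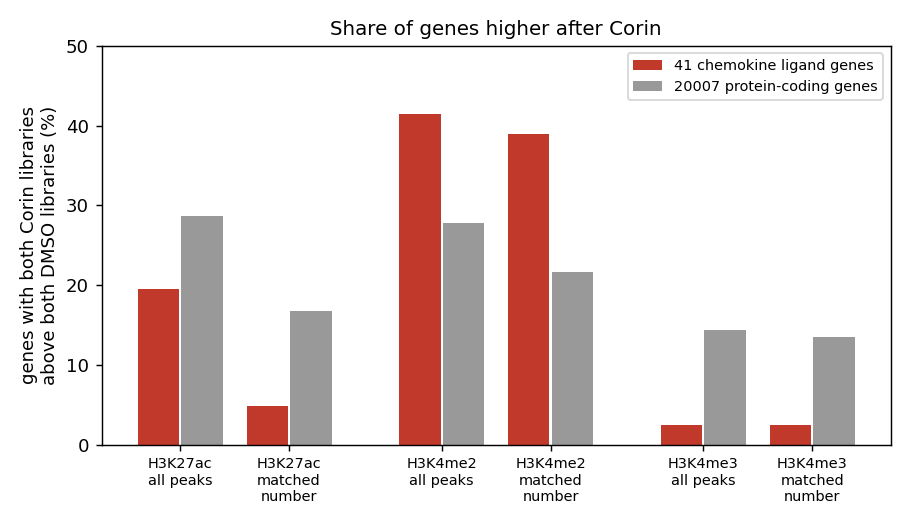
Percent of genes with both Corin libraries above both DMSO libraries (vertical axis, bars from 0) for each mark, with every listed peak and with a matched number of peaks per list; red bars are the 41 chemokine ligand genes and grey bars the 20007 protein-coding genes. For H3K4me2 the members stand at 41.5% and 39.0%, above 27.8% and 21.6% of all genes, while for H3K27ac and H3K4me3 they stand below. A gene without a peak cannot be called. Among genes with a listed peak in at least 1 library (not drawn), 53.3% of members and 54.6% of all genes were higher in H3K27ac. These shares were 70.8% and 39.5% in H3K4me2, and 25% and 25.7% in H3K4me3.

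Read as whole loci, the clusters differed in how much of each mark they carried and by how much treatments differed. The CCL2 to CCL1 locus (6 members, 128 kb, chr17:34245274-34373233) held 4829 and 4523 bp of H3K4me2 after Corin against 367 and 760 bp after DMSO, an 8.30-fold ratio and a difference of 4113 ± 352 bp. Genome-wide, the H3K4me2 ratio was 1.28. H3K27ac there was 200 and 247 bp after Corin and 0 in both DMSO libraries, and no H3K4me3 was listed. At a matched number of peaks the H3K4me2 values were 4537 and 3408 bp against 367 and 760 bp.

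The CCL5 to CCL4L2 locus (11 members, 350 kb, chr17:35870793-36220924) held the most bp of each mark, though a larger share of the short CXCL9 to CXCL11 locus was covered in H3K4me2 (9.65% after Corin, against 5.08%) and H3K27ac (4.76% against 2.35%). It held 17961 and 17618 bp of H3K4me2 after Corin against 8541 and 10956 bp after DMSO (1.82-fold), and 8548 and 7939 bp of H3K27ac against 2810 and 2607 bp (3.04-fold). The H3K27ac difference of 5535 ± 454 bp was 2668 bp at a matched number of peaks, with values of 6459 and 4293 bp against the same DMSO values. The groups stood apart in both marks. Its H3K4me3, 783 and 845 bp against 486 and 407 bp, was a single region near the start of TBC1D3B, 12786 bp from CCL3L3.

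On chromosome 4 the H3K27ac values varied more between replicates. The CXCL8 to CXCL2 locus (6 members, 379 kb, chr4:73730519-74109196) held 2668 and 1477 bp of H3K27ac after Corin against 1121 and 239 bp after DMSO, a difference of 1393 ± 1048 bp that was 797 bp without Corin replicate 1. Its H3K4me2 overlapped between treatments, at 6616 and 4753 bp against 4774 and 3748 bp. The CXCL9 to CXCL11 locus (3 members, 53.9 kb, chr4:75997509-76051415) held 6746 and 3654 bp of H3K4me2 against 2850 and 3077 bp. It held 3438 and 1698 bp of H3K27ac against 1672 and 450 bp, groups that barely separated. At a matched number of peaks the groups overlapped in H3K27ac at both loci, with differences of 431 bp for CXCL8 to CXCL2 (1804 and 418 bp against 1121 and 239 bp) and 152 bp for CXCL9 to CXCL11 (1949 and 477 bp against 1672 and 450 bp). With every listed peak but without Corin replicate 1, the CXCL9 to CXCL11 differences were 690.5 bp for H3K4me2 and 637 bp for H3K27ac. Without Corin replicate 2 they were 3783 and 2377 bp.

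Across windows and loci, 9 of 56 H3K4me2 regions and 7 of 35 H3K27ac regions were gained, beside 9.64% and 11.5% of all regions of these marks in the genome. For H3K4me3 0 of 5 were gained, beside 1.5%. None was lost in any mark, beside 0.158%, 0.18% and 0.29% for H3K4me2, H3K27ac and H3K4me3. Where a library had to cover at least 50% of a region, 16 of the 56 H3K4me2 regions and 7 of the 35 H3K27ac regions were gained, beside 13.7% and 15.1% of all regions under the same rule. The CCL2 to CCL1 locus held 4 of the H3K4me2 gains, and 26 of the 56 H3K4me2 regions were listed in all 4 libraries. H3K4me2 gains lay over the TSS at CCL2 and CCL4L2, and the others were intergenic or intronic. None of the H3K27ac gains lay over a member's TSS. They lay 7768 and 5581 bp upstream of CXCL8, 5896 bp upstream of CCL1, 18158 bp upstream of CCL23, 4556 bp downstream of CCL3, 8586 bp downstream of CCL3L3, and at the MED11 start near CXCL16. At a matched number of peaks 6 of 44 H3K4me2 regions and 1 of 20 H3K27ac regions were gained, beside 3.91% and 4.49% of all regions in the genome.

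The promoters available here were poor in CpG. The RefSeq promoter set used held 30 of the 41 members. Their median was 3 CpG dinucleotides in 250 bases, beside 17 for 15345 protein-coding genes. CCL2, CCL4, CCL4L2, CCL5, CCL11, CCL14, CCL15-CCL14, CCL16, CCL17, CCL21 and CXCL16 were not in the set, so every share of member promoters leaves them out. Of the 30, CXCL12 (31), CXCL14 (25), CXCL2 (20), CXCL3 (19) and CXCL1 (18) had a CpG-rich promoter. CXCL12, CXCL14 and CXCL1 were among the members without any listed peak. Of the motifs searched, GAGGAA read on the opposite strand can share bases with the NF-kappaB consensus. The NF-kappaB consensus was found in 30.0% of member promoters and 5.21% of all promoters, and GAGGAA in 40.0% and 23.6%. A match describes the letters only.

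The receptors for these ligands were read in the same way. Of 22 chemokine receptor genes, 8 were higher in H3K27ac, 8 in H3K4me2 and 2 in H3K4me3, beside 28.7%, 27.8% and 14.4% of all genes. In each mark 0 were lower, beside 0.345%, 2.69% and 4.63%. CCR2, the receptor of CCL2, measured 9739 and 7515 bp of H3K4me2 after Corin against 5075 and 5020 bp after DMSO, and 10049 and 4878 bp of H3K27ac against 2822 and 3337 bp. Its window overlaps those of neighbouring genes. CXCR2, a receptor of CXCL8, measured 3043 and 3397 bp of H3K4me2 against 1560 and 2205 bp. CXCR4, the receptor of CXCL12, overlapped in H3K4me2, at 6079 and 5006 bp against 6484 and 6044 bp, and was among the 8 higher in H3K27ac, at 1717 and 2071 bp against 372 and 0 bp.

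Genes of the NF-kappaB pathway and of interferon-gamma signalling, which control many chemokine genes, were marked far more widely than the ligands. All 13 NF-kappaB genes had a peak of every mark in at least 1 library. Of them 8 were higher in H3K27ac, 8 in H3K4me2 and 6 in H3K4me3, beside the same 28.7%, 27.8% and 14.4% of all genes. In H3K4me2 1 was lower, beside 2.69% of all genes (NFKB2, 3335 and 3024 bp against 3546 and 3477 bp). Of 8 interferon-gamma genes, 4 were higher in H3K27ac, 6 in H3K4me2 and 4 in H3K4me3, beside the same shares of all genes called higher. In H3K4me3 JAK2 was lower, beside 4.63% of all genes. The list also holds 1 gene without a listed peak of any mark in any library, so here as for the ligands the absence of a listed peak describes the lists alone. Of 6 chemokine ligands named outside the CCL and CXCL series, PF4, PF4V1, PPBP and CX3CL1 had no listed peak. XCL1 was higher in H3K4me2, at 470 and 260 bp against 0 in both DMSO libraries, and XCL2 in H3K27ac, at 1061 and 1025 bp against 1021 and 922 bp.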

How the data were processed

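CUT&RUN libraries of MOLM-13 cells were analysed from 12 deposited peak lists, 1 per library, so peaks were called in each library separately. The submitters' processing notes name Trim Galore, Bowtie2, Picard, MACS2 and hg38; their parameters, the control and the threshold are not given in the sources used here. Each deposited list gives a position and a score, a whole number of at least 50 whose definition the authors do not state; here it orders or filters the peaks of 1 list. All 292523 peaks lie within the hg38 chromosome lengths. Read counts per peak were not used here, so depth is unknown and no counting interval was computed.

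Bases under peaks were summed within 10 kb either side of the TSS of 20007 protein-coding genes (GENCODE release 44), and over loci of at least 3 members whose neighbouring TSSs lie under 500 kb apart, plus 10 kb at each end. Marks were never pooled. Tests were exact two-sided permutation tests and limma 3.58.1 (R 4.3.3) on log2(bp + 100), over genes with a peak in at least 2 of 4 libraries, with Benjamini-Hochberg adjustment. The scripts (Python 3.11.15) were tested on simulated data. Gained regions are those touched, by 1 bp or more, by peaks of both Corin libraries and of no DMSO library. The labels do not say what a shared replicate number stands for, so tests are unpaired unless the replicate block is named. Values are given in every library for members with a peak in at least 2 libraries of a mark, fuller accounts for the 5 with the most coverage and the 5 with the largest change per mark. Members, gene lists, motifs and tests were chosen with earlier results of these data known. Alternatives were other windows, matched peak numbers, a score of at least 100, canonical starts, 1 gene per set of overlapping windows, the replicate block, and leaving out each library. Promoter sequences are from RefSeq. 1 receptor gene and the sequence of 1 region were not used here.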

Additional observations from a re-analysis of the deposited data

How the results depend on the processing

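Precision is limited by 2 libraries per group and by peak lists without depth. For H3K27ac, 8 higher members became 2 with a window of 2.5 kb, at a matched number of peaks and with a score of at least 100 (CCL5 and CCL3L3 each time), beside 22.2%, 16.8% and 24.1% of all genes. They became 17 with 25 kb, beside 37.9%, and 0 by limma. For H3K4me2, 17 became 12, 25, 16 and 16 with 2.5 kb, 25 kb, matched peaks and the higher score, beside 19.3%, 35.6%, 21.6% and 26.2% of all genes, and 0 by limma. The 1 lower member became 0 with 25 kb, matched peaks and the higher score, beside 2.01%, 5.23% and 2.7%, and by limma. For H3K4me3, 1 higher member became 0 with 2.5 kb and 2 with 25 kb, beside 12.4% and 17.5% of all genes, and 0 by limma. Libraries share only a number: deviations of same-numbered libraries correlated at 0.213, 0.230 and 0.203 over genes for H3K27ac, H3K4me2 and H3K4me3, and the labels name no pairing. With the replicate block, both same-numbered pairs put 8, 18 (CCL21 added) and 1 members higher, beside 34.7%, 35.1% and 20.8% of all genes. They put 0, 1 and 0 lower, beside 0.82%, 5.15% and 8.64%. Limma with the replicate block called 0, 3 and 0 higher and 0 lower in each mark. The 3 were CCL2, CCL3L3 and CCL4L2 (adjusted p = 0.0117, 0.0249 and 0.0437), of 22 tested, beside 1.81% of all genes tested, and CCL4L2 entered only through the Corin libraries. By the pairs the CXCL8 to CXCL2 locus was also higher in H3K4me2, and among receptors ACKR2 was higher and CXCR4 lower in H3K4me2 and ACKR2 lower in H3K4me3. In pairs at a matched number of peaks, chosen after seeing the data, 4 members were higher in H3K27ac (CXCL8 and CXCL9 added), beside 22% of all genes. The CXCL8 to CXCL2 and CXCL9 to CXCL11 loci were then also higher in H3K27ac. In H3K4me2 17 members were higher (CCL21 added), beside 27.8% of all genes, and CXCL2 was lower, beside 9.1%. Leaving out each library left 1 library in a group, and the counts of called members then changed in each mark. The share of all genes called in that way was not computed, so these counts are not given. None of the 27 differences in bp of single genes then moved by more than its spread or reversed. Counts with canonical starts were 8, 18 and 1, beside 29.1%, 28.2% and 14.7% of all genes. With 1 gene per set of overlapping windows they were 8, 14 and 1. Leaving out CCL3, CCL4 and their copies, an alternative chosen after seeing the data, gave 6, 14 and 1. The last 2 settings use the main call, which held for 28.7%, 27.8% and 14.4% of all genes. All these counts stayed within 1.5 times. With canonical starts the CCL20 difference in H3K4me2 rose from 500.5 to 972.5 bp, the only 1 of 27 that moved by more than its spread. Within 2.5 kb of canonical starts, also chosen after seeing the data, 2, 14 and 0 members were higher, beside 22.7%, 19.9% and 13% of all genes. The CCL2 to CCL1 difference fell from 223.5 to 123.5 bp in H3K27ac and from 4112.5 to 3409 bp in H3K4me2, both with matched peaks and with the higher score. The CCL5 to CCL4L2 difference in H3K27ac fell from 5535 to 2667.5 bp with matched peaks and 3791 bp with the higher score. At a matched number of peaks the H3K27ac differences of CXCL8 to CXCL2 and CXCL9 to CXCL11 fell to 431 and 152 bp with overlapping groups. Gained H3K4me2 regions went from 9 to 16 of 56 when at least 50% had to be covered, as the share of all regions went from 9.64% to 13.7%. With a window of 2.5 kb, 13 of 27 differences in bp of single genes moved by more than their spread, and with 25 kb 17 did. The CXCL3 difference in H3K4me2 reversed to 255 bp with the higher score. The cause was not tested in any of these.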
